A study of Mus musculus with 2 samples.

Results

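A divergent gene pair was taken as 2 protein-coding genes on opposite strands that are transcribed away from each other, with their most 5' transcription start sites (TSSs) at most 1000 bp apart. In the GENCODE M21 annotation of mm10, 755 such pairs were found, holding 1489 of the 21938 protein-coding genes on the assembled chromosomes (6.79%). The region studied for each pair ran 500 bp beyond both TSSs. The rule used the annotation alone and no accessibility value, though it was set with earlier results of these data known. A total of 21 genes belonged to more than 1 pair, so 42 pairs shared a gene with another pair, and 6 of the pairs carried the same symbols under different gene identifiers. Each pair is written with its minus-strand gene first.

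Accessibility was measured by ATAC-seq, in which a transposase inserts sequencing adapters into exposed DNA. The cells were hematopoietic stem cells, the self-renewing bone marrow cells at the root of every blood lineage, from male adult C57BL/6J mice aged 5 to 6 weeks. The series held 1 group of 2 biological replicates made from 50000 cells each, with no treatment and no second cell type. Both replicates carry the same donor identifier, and instrument models were given for replicate 1 only. The sources used here do not say how many animals each replicate came from. A region was called open where at least 1 bp of it lay under a peak of a replicate's IDR-thresholded list, a list of peaks kept for their reproducibility. These lists held 25141 peaks for replicate 1 and 24495 peaks for replicate 2. Read depth was not known, so a region without a peak was only not called at this threshold. Of the genes that mark hematopoietic stem cells, Kit, Hlf, Meis1 and Runx1 had a promoter peak in both replicates, and Procr, Ly6a, Slamf1 and Mecom did not. With the less strict lists described below, Procr and Ly6a also had a peak in both replicates, and Slamf1 and Mecom did not. Of 17 genes of lymphoid, erythroid, granulocytic, stromal and liver cells, 0 had a thresholded peak in both replicates, and 3 had a less strict one.

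In a divergent pair, the transcription machineries of both genes assemble back to back around one stretch of DNA. Such promoters are common in mammals, are mostly rich in CpG dinucleotides and often lack a TATA box. They are known for serving genes of DNA repair, of the cell cycle and of mitochondria. The CpG ratio used here is the observed number of CpG dinucleotides over the number expected from the C and G content, and it separates CpG island promoters from the rest.

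The DNA between the TSSs is shown for 8 of the pairs named below, as examples. It is given on the plus strand from 5' to 3' of GRCm38.p6 (mm10), with neither TSS base included. It was read from the RefSeq genome file. The examples are richer in CCAAT boxes than pairs in general, where 17.7% of stretches of pairs at least 50 bp apart held one. Open pairs without a match, such as Ccdc146-Fam185a and Psmd10-Atg4a, are not shown. Capitals mark exact matches to any of 12 short motif families on either strand. The first 3 were open in both replicates and held CCAAT boxes, matched as AGCCAAT or, on the other strand, ATTGGCT. Mrps12-Sars2 also held an E2F match on the minus strand (TTTCCCGC), and Rnft2-2410131K14Rik was among the 8 open pairs of highest signal.
Mrps12-Sars2, chr7:28741821-28741991: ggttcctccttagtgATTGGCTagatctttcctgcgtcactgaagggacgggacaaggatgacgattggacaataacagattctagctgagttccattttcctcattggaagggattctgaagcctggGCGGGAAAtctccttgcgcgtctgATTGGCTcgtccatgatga
Brca1-Nbr1, chr11:101551956-101552148: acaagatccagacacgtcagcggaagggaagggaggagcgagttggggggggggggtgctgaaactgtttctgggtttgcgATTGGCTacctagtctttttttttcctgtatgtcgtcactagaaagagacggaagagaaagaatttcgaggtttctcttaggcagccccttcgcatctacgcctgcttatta
Rnft2-2410131K14Rik, chr5:118245117-118245226: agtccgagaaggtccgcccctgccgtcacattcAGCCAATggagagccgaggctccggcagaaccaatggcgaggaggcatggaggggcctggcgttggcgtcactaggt
The next 3 were open as well. Eaf2-Golgb1 was another of the 8 pairs of highest signal and held a PU.1 match (GAGGAAGT), and the other 2 were among the 5 open pairs of lowest CpG ratio, H2-T22-Gm6034 with 3 CCAAT boxes and Ifit1bl2-Ifit1 with no match.
Eaf2-Golgb1, chr16:36875004-36875139: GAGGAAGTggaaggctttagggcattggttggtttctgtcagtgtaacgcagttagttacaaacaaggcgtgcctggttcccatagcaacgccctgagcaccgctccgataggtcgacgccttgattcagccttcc
H2-T22-Gm6034, chr17:36042748-36042960: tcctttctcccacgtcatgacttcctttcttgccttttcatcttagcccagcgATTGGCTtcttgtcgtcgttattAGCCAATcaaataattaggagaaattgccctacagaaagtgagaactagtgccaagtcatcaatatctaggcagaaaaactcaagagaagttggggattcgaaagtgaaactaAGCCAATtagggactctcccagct
Ifit1bl2-Ifit1, chr19:34640744-34640870: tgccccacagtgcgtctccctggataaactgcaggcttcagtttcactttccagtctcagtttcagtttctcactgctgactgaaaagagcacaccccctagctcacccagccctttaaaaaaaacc
The last 2 were open in neither replicate. Col4a4-Col4a3 had no match, and Rfng-Gps1, the pair of highest CpG ratio among those not called, had an SP/KLF match on the minus strand (GGGGCGGG).
Col4a4-Col4a3, chr1:82586850-82586920: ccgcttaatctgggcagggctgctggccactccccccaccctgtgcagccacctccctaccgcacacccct
Rfng-Gps1, chr11:120784208-120784271: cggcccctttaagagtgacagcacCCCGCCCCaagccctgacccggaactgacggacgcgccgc

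Of the 755 pair regions, 609 were open in both replicates, which is 80.7% (95% Wilson interval 77.7 to 83.3). A further 34 pairs were open in replicate 1 only, 21 pairs in replicate 2 only, and 91 pairs (12.1%) in neither. In each of the 609 pairs, a peak of replicate 1 overlapped a peak of replicate 2. Over all protein-coding promoters, taken as 500 bp either side of the most 5' TSS, 36.6% were open in both replicates. These intervals cover counting of regions only, and regions of one library are not replicates of a condition. The less strict peak lists of the replicates, with 62918 and 64843 peaks, touched 692 pairs (91.7%) in both, against 51.0% of all protein-coding promoters. All 55 pairs open in 1 replicate had a peak in both less strict lists, as did 28 of the 91 pairs open in neither.

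The pairs were richer in CpG than other promoters. For comparison, 18489 one-gene promoters were taken, from genes in no head-to-head pair and with no TSS of another protein-coding gene within 2000 bp. Their windows ran 500 bp downstream of the TSS and 500 bp plus a pair distance upstream, so both kinds of window had a median length of 1130 bp. The median CpG ratio was 0.761 in pair regions and 0.459 in one-gene windows, and the median GC content was 59.4% in pair regions and 52.5% in one-gene windows. Soft-masked repeats made up a median of 5.21% of pair regions and 12.1% of one-gene windows. Without regard to CpG, 31.6% of one-gene windows were open in both replicates, and 46.4% had a peak in both less strict lists.

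At equal CpG ratio the pairs were still open more often. With one-gene windows weighted to the pairs' CpG strata of 0.1, 80.7% of pairs and 54.7% of one-gene windows were open in both replicates, a difference of 26 percentage points (95% counting interval 23.0 to 29.0). By replicate, 85.2% of pairs and 61.3% of one-gene windows were open in replicate 1. In replicate 2, 83.4% of pairs and 58.0% of one-gene windows were open. Under the less strict lists the shares were 91.7% of pairs and 75.8% of one-gene windows, and the difference was 15.8 points (13.7 to 17.9).

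**Figure D1:**
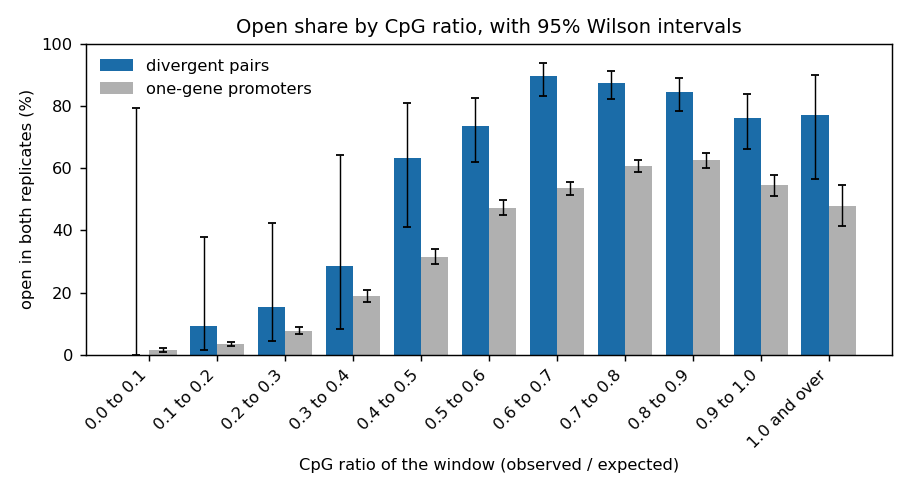
Share of divergent pair regions (blue, left) and of one-gene promoter windows (grey, right) open in both replicates, by CpG ratio of the window; bars start at 0 and error bars are 95% Wilson intervals for counting of regions. Pairs stand above one-gene windows in each stratum from 0.1 upward, and the lowest stratum holds 1 pair.

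The plot of open share by CpG ratio shows where the gap lay. Between ratios of 0.6 and 0.7, 121 of 135 pairs (89.6%) were open, against 1124 of 2097 one-gene windows (53.6%). At a ratio of 1 or more, 17 of 22 pairs (77.3%) were open, against 102 of 213 one-gene windows (47.9%), so in both classes the share was lower there than between 0.6 and 0.9. Below a ratio of 0.4, 5 of 32 pairs (15.6%, interval 6.86 to 31.7) and 572 of 8464 one-gene windows (6.76%) were open. In each stratum below 0.4, the interval of the pairs held the one-gene share.

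A pair region holds 2 start sites, and a peak near either one makes it open. Of 2 one-gene windows in the pairs' CpG strata, taken as independent, at least 1 would be open in both replicates in 78.1% of cases. Of the pairs, 80.7% were open. The part of the 2 start sites in the difference in open share was not tested. Counted per start site, a peak within 100 bp lay in both replicates at 1149 of the 1510 TSSs of pairs (76.1%). The share of one-gene TSSs at equal CpG ratio was 51.5%. The 2 TSSs of a pair were not separate counts, since in 533 pairs 1 peak lay over both in both replicates. Both TSSs were covered in 552 pairs and only 1 in 45 pairs. A peak at either gene thus often counted for both, and this count still gave a pair 2 chances. Minus-strand and plus-strand TSSs of pairs were alike in this, at 76.0% and 76.2%.

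Some one-gene promoters had a noncoding gene in place of a second coding gene. For 823 of them, a noncoding gene of the annotation started on the opposite strand within 1000 bp upstream. At the pairs' CpG ratio, 66.2% of these were open in both replicates, 14.4 points below the pairs (10.1 to 18.8), and 53.8% of the other 17666 one-gene windows were open.

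Where a pair was open, it held more summits than an open one-gene promoter. A summit is a local maximum that the authors' list reports inside a peak. The 643 pairs open in replicate 1 held 1.82 summits on average, against 1.53 in one-gene windows at equal CpG ratio. In replicate 2 the 630 open pairs held 1.86 summits, against 1.57. At least 2 summits lay in 61.0% of open pairs and 44.4% of one-gene windows in replicate 1, and in 65.1% of open pairs and 47.2% of one-gene windows in replicate 2. The difference in means was 0.288 summits in replicate 1 and 0.292 in replicate 2. With regions cut to 250 bp beyond each TSS the mean difference was 0.191 summits. A pair region holds 2 start sites, and the part of this in summit number, and in the widths and signals below, was not tested.

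Peaks over pairs were also wider. The strongest peak of an open pair had a median width of 676 bp (quartiles 515 and 826) in replicate 1, against 594 bp in one-gene windows, and of 708 bp (543 and 861) in replicate 2, against 618 bp. All peaks of the lists had median widths of 473 and 494 bp. The pair minus one-gene difference was 85.8 bp ± 5.30 (SD, n = 2 replicates). Among the 96 pairs and 7273 one-gene promoters whose genes have all annotated TSSs within 500 bp of each other, the difference in width was 22.3 bp and that in open share was 33.4 points.

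Signal, a value per peak in the authors' lists, was read as a percentile within each list because the scale of the values is not stated. Open pairs had a median percentile of 77.0 in replicate 1 and 71.2 in replicate 2, against 69.3 and 65.2 for one-gene windows at equal CpG ratio. The difference was 6.82 percentile points ± 1.13 (SD, n = 2 replicates), 2.30 points among the genes with closely spaced TSSs, and 3.88 points with head-to-head pairs of overlapping 5' ends added. The quartiles of the 2 classes overlapped widely, at 55.8 to 88.7 for open pairs and 42.8 to 86.5 for one-gene windows in replicate 1. Of the open pairs, 21.8% in replicate 1 and 18.9% in replicate 2 lay in the top 10% of their list. Each list holds all peaks, not promoter peaks alone, and the one-gene share in its top 10% is not given here. Across the 609 pairs open in both, log2 signal of the replicates correlated with Pearson r = 0.843 and Spearman rho = 0.844, given as a description since the pairs share libraries.

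The 8 open pairs of highest mean signal percentile each lay at a percentile of 98.1 or higher in both replicates. Zfp654-Cggbp1, whose plus-strand gene encodes a CGG-repeat binding protein, had signal values of 17.0 and 18.8 in replicates 1 and 2 over TSSs 344 bp apart. Eaf2-Golgb1, an elongation factor partner and a Golgi tether, had signal values of 15.8 and 19.4. Fam3a-Ikbkg on the X chromosome, where Ikbkg encodes the regulatory subunit of the IκB kinase, had 17.2 and 17.4 with 1 summit in each replicate. Cmc4-Brcc3, with a deubiquitinase of the BRCA1-A complex on the plus strand, had 16.9 and 17.0 on the X chromosome, and its peak was the same as that of Mtcp1-Brcc3. The other 4 were Zfp169-A830005F24Rik, Calr3-1700030K09Rik, Ccdc146-Fam185a and Rnft2-2410131K14Rik, and in all 8 a single peak lay over both TSSs in both replicates.

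**Figure D2:**
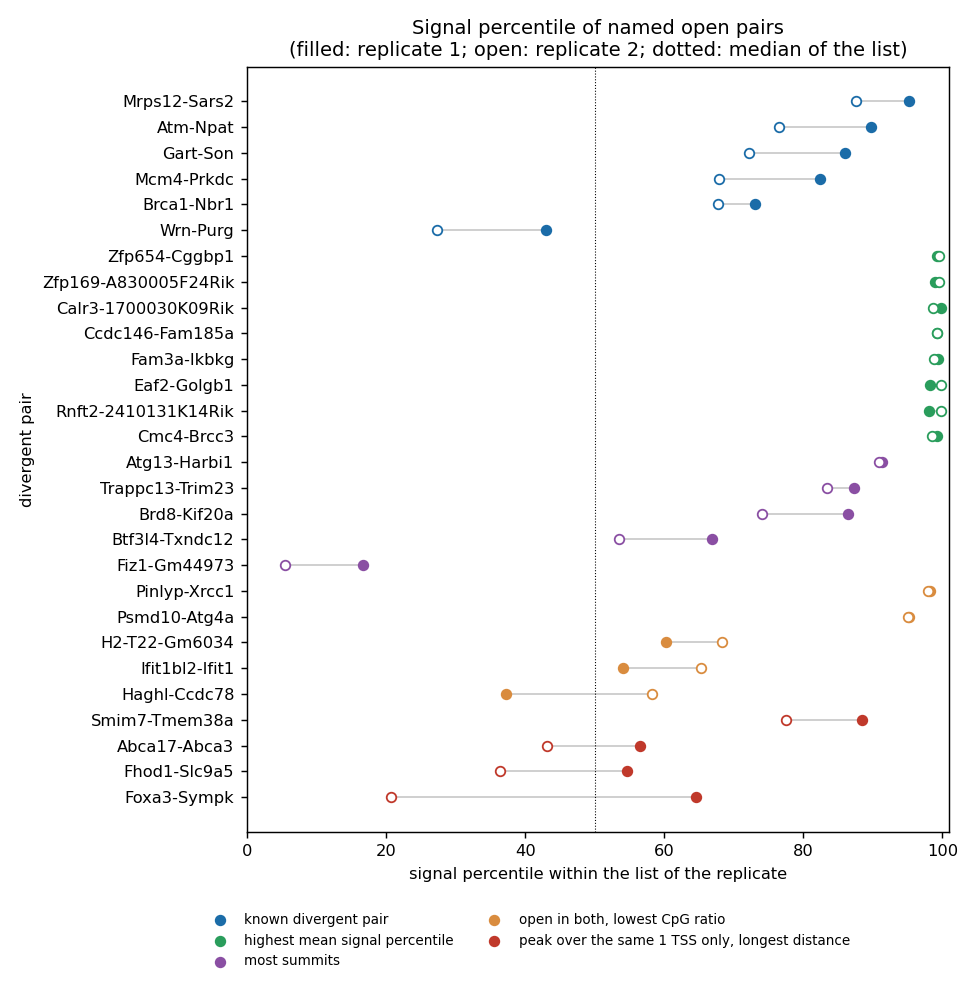
Signal percentile of named open pairs within the peak list of replicate 1 (filled) and replicate 2 (open circle), grouped by the rule that named them; the dotted line is the median of each list. The 8 pairs of highest signal sit at 98.1 or higher in both replicates, and Fiz1-Gm44973, at 16.6 and 5.39, is the lowest.

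Of 16 textbook pairs looked for, 7 met the rule: Atm-Npat, Mcm4-Prkdc, Brca1-Nbr1, Gart-Son, Mrps12-Sars2, Wrn-Purg and Col4a4-Col4a3. The plot of named pairs shows that, by their strongest peak, 5 of the 6 open ones lay above the median of both lists. For Brca1-Nbr1 this peak lay beyond the Nbr1 TSS, and the percentile of its peak over both TSSs is not given here. Of all open pairs, 80.1% in replicate 1 and 72.4% in replicate 2 lay above the median of their list. Open one-gene windows at equal CpG ratio had median percentiles of 69.3 and 65.2, also above it. Mrps12-Sars2, a mitochondrial ribosomal protein and the mitochondrial seryl-tRNA synthetase, had signal values of 14.2 and 13.3 with 2 summits in each replicate, and its strongest summit lay 28 and 19 bp to the Mrps12 side of the midpoint. Atm-Npat, a DNA damage kinase and a coactivator of histone genes, had 12.7 and 11.8 with 1 peak, 793 and 774 bp wide, over TSSs 307 bp apart. Mcm4-Prkdc, a subunit of the replicative helicase and the catalytic subunit of DNA-dependent protein kinase, had 11.5 and 11 with 1 peak of 1045 and 1112 bp over TSSs 466 bp apart.

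Brca1-Nbr1, a homologous recombination factor and an autophagy receptor, had 2 peaks in its region in both replicates. One lay over both TSSs, and the stronger, with signal values of 10.4 and 11, began beyond the Nbr1 TSS. Gart-Son, a purine synthesis enzyme and a splicing cofactor, had 12.0 and 11.4 with TSSs 554 bp apart, and its strongest summit lay 536 and 537 bp from the midpoint, beyond the Son TSS. Replicate 1 had a separate peak at Gart, and replicate 2 had a peak at Son only, so the replicates differed there. Wrn-Purg, a RecQ helicase and a Pur family nucleic acid binding protein, had its peak over the Wrn TSS and none over Purg in either replicate, with signal values of 8.14 and 8.26. Col4a4-Col4a3, which encode basement membrane collagens of the kidney glomerulus, had no peak in either thresholded list and a peak in both less strict lists.

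The position of the peak followed the distance between the TSSs, which had a median of 129 bp (quartiles 66.5 and 240) and ran from 0 to 987 bp. Up to 100 bp apart, 1 peak lay over both TSSs in 257 of 263 pairs open in replicate 1 and in 249 of 255 pairs open in replicate 2. From more than 300 up to 500 bp this was so in 49 of 60 pairs in replicate 1 and in 46 of 59 pairs in replicate 2. Beyond 500 bp it was so in 12 of 51 pairs in replicate 1 and in 16 of 53 pairs in replicate 2, while 49.0% and 49.1% of open pairs had a peak over 1 TSS only. The TSS of a pair was counted as covered where a peak came within 100 bp of it, so a peak at 1 TSS also covers a partner closer than that.

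**Figure D3:**
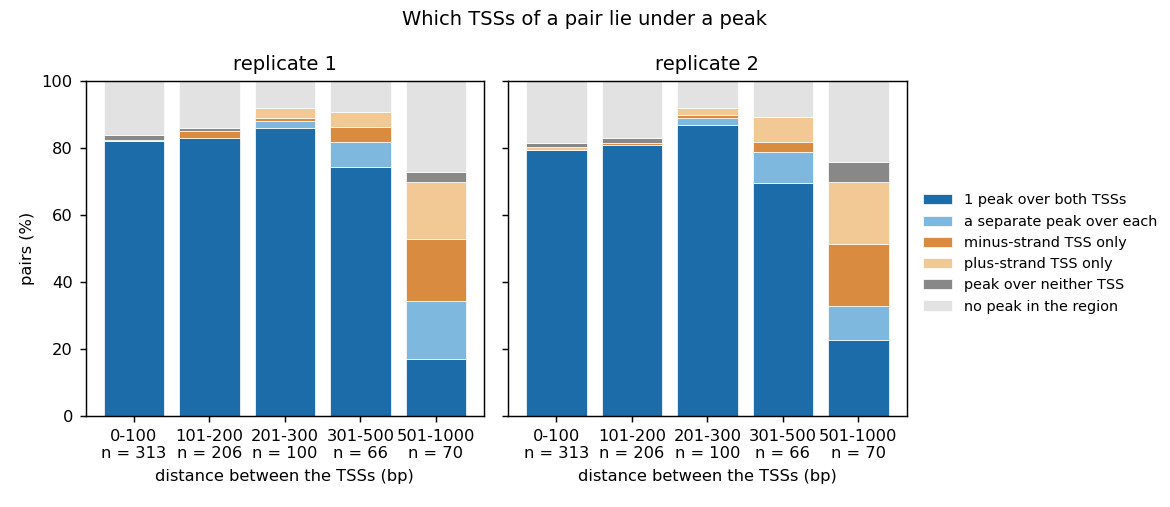
Share of divergent pairs by which TSSs lay within 100 bp of a peak, for 5 classes of distance between the TSSs, in replicate 1 (left) and replicate 2 (right); the number of pairs stands under each bar. A single peak over both TSSs is the main class up to 500 bp, and beyond 500 bp it holds 12 and 16 of 70 pairs.

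The open share itself did not run in one direction with distance. It was 77.0% of 313 pairs up to 100 bp, 81.6% of 206 pairs up to 200 bp, 90% of 100 pairs up to 300 bp, 89.4% of 66 pairs up to 500 bp and 72.9% of 70 pairs beyond. The widest class also had the lowest median CpG ratio, 0.635. Its difference to one-gene windows at equal CpG ratio was 25.5 points (14.7 to 36.4), against 21.2 points (16.3 to 26.1) for pairs up to 100 bp, and these intervals overlapped. Per start site, in contrast, pairs more than 500 bp apart stood 3.79 points above one-gene promoters, with 47.9% of pair TSSs and 44.1% of one-gene TSSs under a peak in both replicates. In the other 4 distance classes that gap was 22.1 to 36.2 points.

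Open pairs held more summits beyond 300 bp than below. Pairs up to 100 bp apart held 1.74 summits in replicate 1 and 1.75 in replicate 2, pairs up to 200 bp 1.73 and 1.83, and pairs up to 300 bp 1.76 and 1.86. Pairs more than 300 and up to 500 bp apart held 2.05 and 2.22, and pairs further apart held 2.31 and 2.11. The region grew with the distance, so wider pairs offered more room for a summit. In regions with exactly 2 summits, these lay a median of 311 bp apart in replicate 1 (n = 282), and the quartiles of that spacing in replicate 2 were 262 and 364 bp (n = 291). Even for TSSs up to 100 bp apart the spacing was 282 and 282 bp, wider than the distance between the TSSs.

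**Figure D4:**
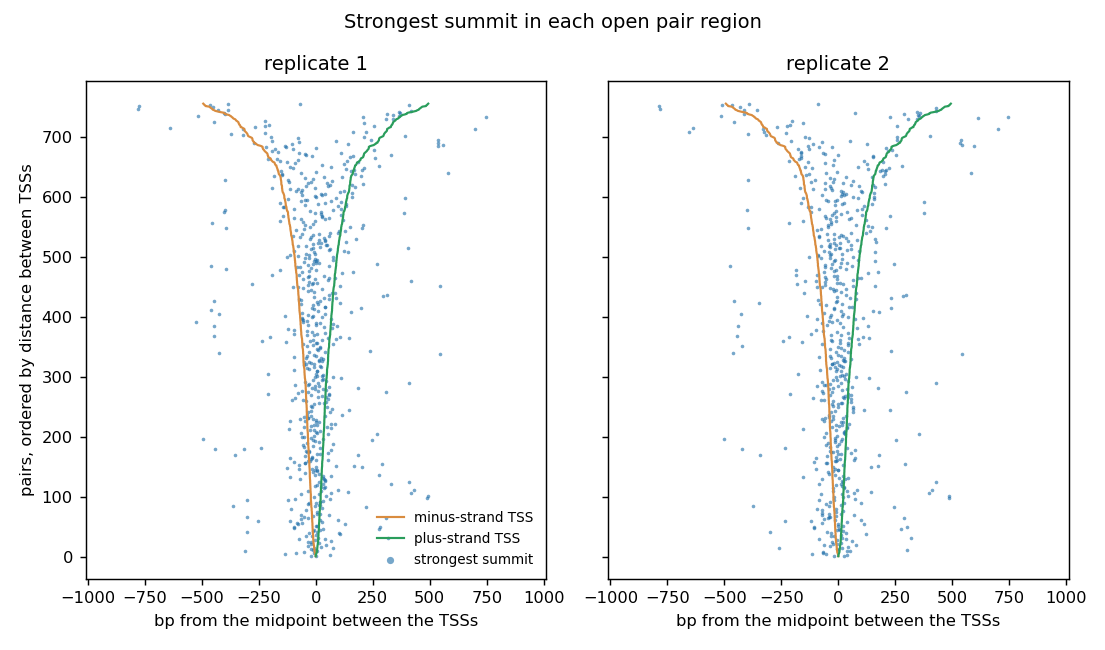
Strongest summit (blue points) of each open pair region in replicate 1 (left) and replicate 2 (right), in bp from the midpoint between the TSSs; pairs run upward by distance, and lines mark the minus-strand (orange) and plus-strand (green) TSSs. Most points lie between or close to the lines, with 57.8% and 57.4% between them.

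The strongest summit lay between the TSSs in 370 of 640 pairs (57.8%) in replicate 1 and in 359 of 625 pairs (57.4%) in replicate 2. It was a median of 57.8 and 57 bp from the midpoint, and of the remaining summits 129 lay on the minus-strand and 141 on the plus-strand side in replicate 1. Within the 2 widest distance classes, of 51 to 60 open pairs per replicate, the sides were less even. The side with the larger share differed between these 2 classes, and no test was made. For pairs more than 300 and up to 500 bp apart, 21.7% in replicate 1 and 23.7% in replicate 2 had the strongest summit on the plus-strand side, against 5.0% and 5.1% on the minus-strand side. Beyond 500 bp it was on the plus-strand side in 11.8% and 13.2%, against 19.6% and 24.5% on the minus-strand side. In one-gene windows at equal CpG ratio, the strongest summit lay in an upstream stretch of the same lengths in 48.3% and 46.0%. For pairs more than 100 and up to 200 bp apart the shares between the TSSs were 71.6% and 66.5%, against 55.4% and 52.6% in the matching stretch upstream of one-gene TSSs. For pairs more than 500 bp apart they were 68.6% and 62.3%, against 72.6% and 70.5%. The plot of summit positions shows like spreads in both replicates, and in 87.8% of 606 pairs the strongest summits of the replicates lay within 50 bp of each other.

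A peak over the same TSS only, in both replicates, was found in 30 pairs, 15 on each strand. Of these, 21 had TSSs more than 500 bp apart. The 5 most widely spaced included Smim7-Tmem38a, 967 bp apart, where a peak of 914 and 917 bp lay over Smim7 and none over Tmem38a, which encodes a cation channel of the muscle reticulum. Fhod1-Slc9a5, a formin and a sodium-proton exchanger, had its peak over Fhod1. Abca17-Abca3 had its peak over Abca3, a lipid transporter. Foxa3-Sympk, a liver transcription factor and a polyadenylation factor 839 bp apart, had its peak over Sympk, with signal percentiles of 64.6 and 20.6. Haghl-Ccdc78 had its peak over Haghl at a CpG ratio of 0.283.

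Other such pairs were chosen after their values were seen. Actn3-Zdhhc24 had a peak over Zdhhc24 and none over Actn3, the actinin of fast muscle fibres. Tas1r1-Nol9 had one over Nol9 and none over the taste receptor gene Tas1r1. Amdhd1-Ccdc38 had one over Amdhd1 and none over Ccdc38. Such pairs were not sorted by the tissues that express their genes, so these examples show no rule. Rfxank-Mef2b, with a regulator of MHC class II genes on the minus strand, and Psme2-Rnf31, a proteasome activator and a ubiquitin ligase of the linear chain complex, were in contrast covered by 1 peak in both replicates over 557 and 595 bp.

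The most summits lay in Trappc13-Trim23 (5 and 5 in replicates 1 and 2) and Fiz1-Gm44973 (5 and 4). After them, 8 pairs tied at a sum of 8 summits: Atg13-Harbi1, Brd8-Kif20a, Btf3l4-Txndc12, Dus4l-Cog5, Enkur-Thnsl1, Mrpl50-Zfp189 and Zfp672-Sh3bp5l with 4 and 4, and Pdcd10-Serpini1 with 5 and 3. The plot of named pairs shows the first 3 of these by symbol. Atg13 belongs to the kinase complex that starts autophagy, and Kif20a is a kinesin of cytokinesis. The distances of these 10 pairs ran from 12 bp in Brd8-Kif20a to 987 bp in Btf3l4-Txndc12. The number of summits was equal in the replicates for 398 of 609 pairs (65.4%). Btf3l4-Txndc12, Asphd1-Sez6l2 and Zfyve26-Rad51b, at 987, 981 and 978 bp, were the pairs just inside the limit of 1000 bp, and all were open in both replicates. Just outside it, Gpr108-Trip10 at 1009 bp and Sgsm2-Tsr1 at 1011 bp were open in both, and Serpina7-4930513O06Rik at 1007 bp, with a CpG ratio of 0.0829, in neither. Head-to-head pairs more than 1000 and up to 2000 bp apart were open in 64 of 108 cases (59.3%), and those with overlapping 5' ends in 330 of 456 (72.4%).

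Gene groups were formed by symbol, and 1 pair could fall in several. Their shares are set beside the 80.7% of all pairs and carry no test. One-gene promoters of the same groups, not weighted by CpG ratio, were often open in both replicates as well. Their share was 80% for cell division, 78.8% for RNA processing and translation and 78.7% for the respiratory chain. For DNA replication and repair it was 77.8%, or 21 of 27. It was 68.3% for mitochondrial translation, 66.7% for histones (10 of 15), 61.5% for zinc finger genes, 59.3% for chaperones and 57.2% for ubiquitin and proteasome genes. The lists of nucleotide synthesis and of blood and immune regulators named 0 one-gene promoters. Chaperone genes were in 19 pairs, and all 19 were open in both replicates (interval 83.2 to 100). Among them Hspa14-Cdnf, an Hsp70 family member and a neurotrophic factor of the endoplasmic reticulum, lay at percentiles of 94.7 and 92.2. Cell division genes were in 52 pairs, of which 49 were open in both replicates (94.2%, interval 84.4 to 98), 2 in 1 replicate and 1 in neither. The 1 in neither, Rhno1-Foxm1, holds the gene of a mitotic transcription factor and had a peak in both less strict lists. Cep128-Tshr, a centriole protein and the thyrotropin receptor, lay at 97.4 and 98.5, with 1 peak over both TSSs 154 bp apart. Respiratory chain subunits and assembly factors were in 33 pairs, 29 open in both and 4 in 1 replicate. Ndufaf2-Ercc8, a complex I assembly factor and a nucleotide excision repair gene, lay at 97.8 and 96.2.

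**Figure D5:**
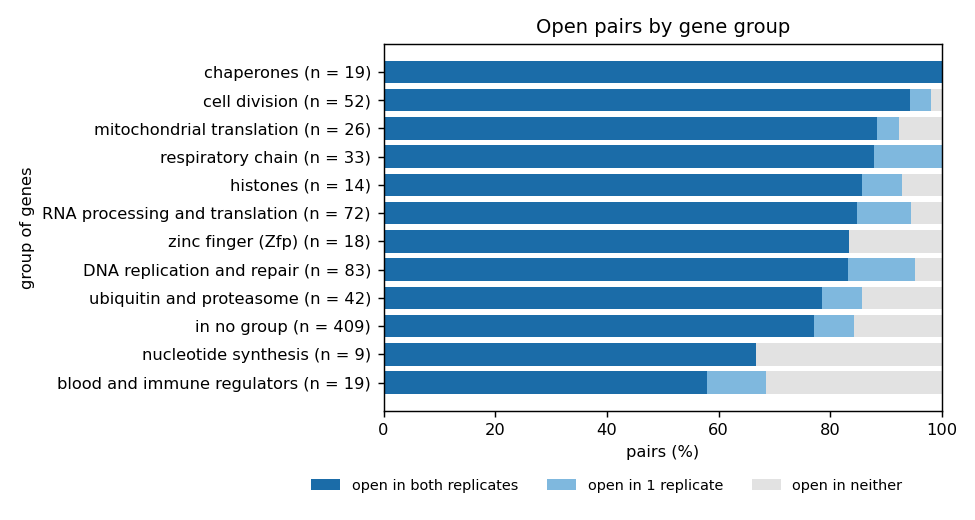
Share of divergent pairs open in both replicates, in 1 replicate and in neither, by group of genes (groups of more than 5 pairs; number of pairs in brackets). Chaperone pairs stand at 19 of 19 open and blood and immune regulators at 11 of 19, beside 609 of all 755 pairs.

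DNA replication and repair genes formed the largest group by number of pairs, and the size of a group depends on its symbol list. Of its 83 pairs, 69 were open in both replicates (83.1%), 10 in 1 replicate and 4 in neither. Trmt6-Mcm8, a tRNA methyltransferase subunit and a helicase of homologous recombination, lay at percentiles of 97.6 and 98.6. Mitochondrial translation was represented by 26 pairs, 23 of them open. Nsa2-Gfm2, a ribosome assembly gene and a mitochondrial translation gene that share their start position, lay at 92.9 and 96.7. RNA processing and translation genes were in 72 pairs, 61 of them open, with 6030458C11Rik-Drosha, whose plus-strand gene encodes the nuclear microRNA-processing enzyme, at 98.4 and 98.7. Zinc finger genes had 15 of 18 pairs open, ubiquitin and proteasome genes 33 of 42, and nucleotide synthesis genes 6 of 9. The interval of each of these 6 shares held the 80.7% of all pairs.

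Histone genes were in 14 pairs, mostly an H2A gene back to back with an H2B gene, and 12 were open in both replicates. Bola1-Hist2h2ab was open in replicate 2 only, at a percentile of 4.32. The pair open in neither, also without a peak in either less strict list, was Hist1h2ba-Hist1h2aa, the testis forms of both histones. Hist1h2ah-Hist1h2bk lay at percentiles of 88.0 and 93.1, but 53.1% of its 31-base words occur more than once in the genome. Across the 12 open histone pairs that share ran from 18.3% in Hist1h2bh-Hist1h3f to 100% in Hist1h2bq-Hist1h2ao and Hist1h2ap-Hist1h2br, so reads of the group could come from near-identical copies. Over all pairs it had a median of 0 both in pairs open in both replicates and in pairs open in neither.

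Blood and immune regulators had 11 of 19 pairs open in both replicates (57.9%, interval 36.3 to 76.9), 2 in 1 replicate and 6 in neither. This list was drawn from the symbols of the pairs themselves, and its median CpG ratio was 0.620, against 0.761 over all pairs. Fam3a-Ikbkg, Ikzf5-Acadsb, with an Ikaros family zinc finger gene, and Pus7l-Irak4, with a kinase of Toll-like receptor signalling, were the 3 of highest signal, the last at percentiles of 90.9 and 93.3. Plgrkt-Cd274, whose plus-strand gene encodes the checkpoint ligand PD-L1, and Park7-Tnfrsf9, with the costimulatory receptor 4-1BB, were open in both, with 1 peak over both TSSs. Pecam1-Milr1, an endothelial and platelet adhesion molecule and a mast cell receptor, and Dok1-Loxl3 had a peak only in the less strict lists. Smyd1-Cd8b1, a muscle methyltransferase and a T cell coreceptor chain, and Il11-Tmem190 had none in any of the 4 lists. The 2 pairs of the MHC group, H2-T22-Gm6034 and Psme2-Rnf31, were both open.

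The 91 pairs open in neither replicate were spread widely in CpG ratio. Their median CpG ratio was 0.592 (quartiles 0.323 and 0.800), against 0.766 in pairs open in both, and their median GC content was 59.0%, against 59.2%. In 44 of the 755 pairs no peak lay in either less strict list. The 5 of highest CpG ratio were Rfng-Gps1 (0.986), Baz2b-March7, Acad10-Brap, Noc4l-Ddx51 and Tshz1-Zadh2 (0.928). Rfng encodes a glycosyltransferase of Notch signalling and Gps1 a subunit of the COP9 signalosome, while Noc4l and Ddx51 serve ribosome assembly. The first 4 had a peak in both less strict lists, and Tshz1-Zadh2 in 1 of them. Wrap53-Trp53, chosen after its values were seen, carries the p53 gene and had a peak in both less strict lists at a CpG ratio of 0.572.

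Kirrel2-Nphs1, which holds the gene of podocyte nephrin, had no peak in any of the 4 lists at a CpG ratio of 0.235, nor had Slc27a5-Trim28 at 0.160. Both were chosen after their values were seen. Trim28, a corepressor that most cells express, had a peak in both replicates at another of its annotated TSSs, as had the ribosomal protein gene Rps2 of Rnf151-Rps2, also chosen after its values were seen. In 23 of the 91 pairs (25.3%) at least 1 of the genes was open at another annotated TSS outside the region, against 6.20% of one-gene windows open in neither at equal CpG ratio. A pair gives 2 genes the chance to have such a TSS.

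The 5 open pairs of lowest CpG ratio were unlike each other. Ifit1bl2-Ifit1, 2 interferon-induced genes at a ratio of 0.119, had signal values of 8.86 and 10.8 and 1 summit in each replicate, 18 and 4 bp from the midpoint. H2-T22-Gm6034, with a nonclassical MHC class I gene, had signal values of 9.33 and 11, and 37.0% of its 31-base words occur more than once in the genome. Psmd10-Atg4a, a proteasome assembly chaperone and an autophagy protease on the X chromosome, had 14.2 and 15.1 with 3 summits in each. Pinlyp-Xrcc1, whose plus-strand gene is a scaffold of single-strand break repair, had 15.8 and 16.5, but its peak only touched the edge of the region and came within 100 bp of neither TSS. On the X chromosome 13 of 20 pairs were open (65.0%, interval 43.3 to 81.9), against 596 of 735 autosomal pairs (81.1%), and X one-gene windows at equal CpG ratio stood at 42.1%.

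The sequences of the pairs differed from one-gene windows of equal length and CpG ratio in some motifs, searched as exact letters on both strands. A pair region holds 2 start sites, unlike a one-gene window, and the part of this in the motif shares was not tested. The ETS motif CCGGAAG was in 329 of 755 pair regions (43.6%, interval 40.1 to 47.1) and 27.4% of one-gene windows, or 17.1% without regard to CpG and 19.2% of all protein-coding promoters. The CCAAT box AGCCAAT was in 22.3% of pair regions and 17.1% of one-gene windows (15.4% of all promoters). YY1 (AAGATGGCG) was in 10.1% of pair regions and 5.66% of one-gene windows (3.57% of all promoters), and E2F (TTTGGCGC or TTTCCCGC) in 12.3% of pair regions and 8.27% of one-gene windows (5.04% of all promoters). NRF1 (GCGCATGCG) was in 7.28% of pair regions and 5.00% of one-gene windows, and ZNF143 (ACTACAATT) in 1.99% of pair regions and 0.919% of one-gene windows, against 3.30% and 0.852% of all promoters.

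The letters TATAAA were less frequent, in 18.4% of pair regions and 28.2% of one-gene windows (32.3% of all promoters). SP/KLF (GGGGCGGG) was in 52.1% of pair regions and 53.8% of one-gene windows (32.4% of all promoters). CRE (TGACGTCA) was in 6.09% of pair regions and 4.92% of one-gene windows, against 3.32% of all promoters. Of the motifs of blood regulators, PU.1 (GAGGAAGT) was in 7.81% of pair regions and 6.64% of one-gene windows, the motif of GATA factors, spelled AGATAAG, in 6.09% and 7.12%, and RUNX (TGTGGTTT) in 3.58% and 4.42%, against 6.86%, 8.60% and 4.78% of all promoters. For SP/KLF, CRE and these 3 the one-gene share lay within the interval of the pairs. The ETS and PU.1 words share the letters GGAAG and differ in those before them.

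Between the TSSs alone, in the 628 pairs at least 50 bp apart, the CCAAT box was in 17.7% of the stretches, against 7.91% of upstream stretches of equal length at one-gene promoters of equal CpG ratio. The ETS motif was in 16.4% of the stretches between TSSs, against 9.51% of the upstream stretches. Pairs that held an ETS motif were open in both replicates in 87.8% of cases and those without in 75.1%. With a CCAAT box 92.3% of pairs were open, and without it 77.3%. Of the pairs open in neither, 16.5% held an ETS motif and 9.89% a CCAAT box, against 47.5% and 25.5% of pairs open in both. The CpG ratio of these subsets was not equalised, and its part in these shares was not tested.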

How the data were processed

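ATAC-seq peak lists of 2 replicates of hematopoietic stem cells were used. Per the labels, the assembly is mm10; the sources used here name no aligner, peak caller or threshold. The deposited lists give, for each summit, a peak interval, a signal value from the authors and a summit offset; lines with the same interval were merged into 1 peak with its highest signal. Peaks were called per replicate by the authors; series-level lists served as alternatives. Signal from one list was ranked within that list only. Peak ends were checked against chromosome lengths of GRCm38.p6.

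Genes came from GENCODE M21. Pairs, windows, CpG ratio (strata of 0.1), open calls (overlap of at least 1 bp), summits, TSS cover and motif matches were computed with Python 3.11.15, numpy and pandas, and shares were given with 95% Wilson intervals. One-gene values were weighted to the pairs' strata. Functions were tested on simulated data. No test between conditions was possible, since the series has 1 group, and no p-value is given; intervals cover counting of regions only.

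Named pairs were 7 of 16 textbook pairs and those ranked highest or lowest in signal, summits, CpG ratio and distance, with up to 3 per gene group by signal. The members, lists and rules were chosen with earlier results of these data known. Alternatives changed the peak list, overlap, region, window, strata, pair set, annotation and replicate. Not every marker gene looked up is reported here.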

Additional observations from a re-analysis of the deposited data

How the results depend on the processing

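Under 15 alternatives 71 values were recomputed, some of them plain shares of pairs open, which cannot fall below 0. The differences between pairs and one-gene promoters in open share, summits, signal percentile and width all stayed above 0. Of the 71, 38 moved by less than the spread (of replicates, or the counting interval) and 33 by more. The share of pairs open was 91.7% with the less strict lists, 89.1% with the series-level thresholded list, 91.4% with the series-level conservative list (43478 peaks, more than the 36033 of the thresholded one) and 77.5% with overlapping head-to-head pairs added; with 1 replicate left out it was 83.4% to 85.2%. The difference in open share, 26 points as reported, was 15.8, 20.8 and 19.8 points with these 3 lists, 36.0 with GC strata and 33.4 for genes with all TSSs within 500 bp, an alternative chosen after seeing the data; 23.9 to 25.5 with 1 replicate left out.

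The difference in summits, 0.290, was 0.343, 0.335 and 0.341 with the 3 lists in that order, 0.278 for regions with a summit inside, 0.191 at 250 bp, 0.328 against windows of 500 bp either side, 0.307 with GC strata, 0.295 with each gene in 1 pair, 0.311 with overlapping pairs, 0.299 without divergent noncoding genes, 0.300 without Gm and Rik gene models (also chosen after seeing the data) and 0.213 for closely spaced TSSs; 0.288 to 0.292 with 1 replicate left out. The difference in signal percentile, 6.82, was 8.02 and 8.09 with the less strict and series-level thresholded lists, 10.1 with GC strata, 3.88 with overlapping pairs and 2.30 for closely spaced TSSs; 6.02 to 7.62 with 1 replicate left out. The difference in width, 85.8 bp, was 119, 1.0e+02 and 109 bp with the 3 lists, 95.8 bp with GC strata and 22.3 bp for closely spaced TSSs; 82.0 to 89.5 bp with 1 replicate left out. The cause of these shifts was not tested. No paired analysis was possible because the series has 1 group.

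Read depth was not known, so absence from a list is a limit of its threshold. The most 5' annotated TSS need not be the one used in these cells. The same donor identifier stands on both replicates.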
